A study of Mus musculus with 7 samples.

Results

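The genes described here are 40 genes of enteric neurons and glia, taken by gene name from the 47069 rows of a table of mouse duodenal RNA, in which all 40 were found. They comprise 36 genes of neurons and 4 of glia. The duodenum of 7 male C57BL/6 mice (C57BL/6J in the description of the series), aged 8 to 12 weeks, was sequenced with 1 library per mouse. The 4 vehicle mice received 0.5% carboxymethylcellulose, and the 3 T09 mice received T0901317 at 50 mg/kg/day, a synthetic agonist of the liver X receptors, which sense oxysterols. The comparison asks how this agonist changes the intestinal transcriptome. No genetic alteration is given for either group, and the sources used here do not give the route or length of treatment. The libraries held 15395535 to 20494485 counts, and 14250 genes with enough counts were tested.

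The enteric nervous system lies within the gut wall as the myenteric plexus, between the muscle layers, and the submucosal plexus below the mucosa. Its neurons arise from the neural crest under transcription factors such as Phox2a and Hand2 and the receptor Ret, and enteric glia carry Sox10, S100b and Gfap. Excitatory motor neurons release acetylcholine and tachykinins, and inhibitory motor neurons release nitric oxide and vasoactive intestinal peptide. Because a sample of whole duodenum contains few of these cells among epithelium and muscle, their transcripts are scarce in it.

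Of the 40 genes, 29 have a promoter entry in RefSeq (GRCm38.p6), covering 250 bases before to 50 bases after the gene's start. 4 of these 300-base promoters are printed. Gal, Syt1 and Sncg had the largest falls with T09 among called genes whose promoter held any of the letter patterns searched below. Tac1, a neuropeptide gene with nearly equal means in both groups, is set beside them. Capitals mark CCGCCC or its reverse complement GGGCGG, the GC box letters, in sequences written 5′ to 3′ on the strand of the gene. Gal lies at chr19:3414495-3414794 (minus strand), Syt1 at chr10:109010926-109011225 (minus strand, the first of 2 entries), Sncg at chr14:34374620-34374919 (minus strand) and Tac1 at chr6:7554811-7555110 (plus strand).
Gal: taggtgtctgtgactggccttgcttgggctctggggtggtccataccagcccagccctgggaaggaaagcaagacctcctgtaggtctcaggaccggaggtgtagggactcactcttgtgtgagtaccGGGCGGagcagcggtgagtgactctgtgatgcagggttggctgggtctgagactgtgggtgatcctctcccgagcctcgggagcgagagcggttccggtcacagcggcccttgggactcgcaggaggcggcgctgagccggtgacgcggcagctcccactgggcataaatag
Syt1: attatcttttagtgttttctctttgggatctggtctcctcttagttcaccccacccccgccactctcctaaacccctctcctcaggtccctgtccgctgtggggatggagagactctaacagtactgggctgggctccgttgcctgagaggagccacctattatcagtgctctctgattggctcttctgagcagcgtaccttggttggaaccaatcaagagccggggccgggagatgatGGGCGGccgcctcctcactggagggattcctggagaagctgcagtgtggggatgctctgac
Sncg: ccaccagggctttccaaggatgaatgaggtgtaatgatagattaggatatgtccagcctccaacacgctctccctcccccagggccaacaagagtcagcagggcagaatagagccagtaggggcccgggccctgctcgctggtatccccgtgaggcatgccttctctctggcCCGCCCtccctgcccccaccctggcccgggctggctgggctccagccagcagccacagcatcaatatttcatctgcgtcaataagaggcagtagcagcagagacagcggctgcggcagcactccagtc
Tac1: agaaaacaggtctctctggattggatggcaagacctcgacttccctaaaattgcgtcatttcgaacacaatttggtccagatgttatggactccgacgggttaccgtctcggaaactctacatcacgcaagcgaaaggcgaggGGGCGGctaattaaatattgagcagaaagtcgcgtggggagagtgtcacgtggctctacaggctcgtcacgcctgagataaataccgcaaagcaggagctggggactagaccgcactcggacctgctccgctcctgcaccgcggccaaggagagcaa

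All of these sequences hold the GC box letters exactly 1 time. The genes that fell were picked for holding a searched pattern, so this cannot tell whether the letters separate them from Tac1. Of 10 called genes with an entry, 7 held CCGCCC. Genes were counted as holding a pattern if any of their promoter entries did, on either strand. CCGCCC was held by 17 of the 29 genes (58.6%) and by 38.2% of all 27025 genes. In the first entry of each gene, the median GC content was 57.0% for the 29 genes, against 52.7% over all genes. TATAAA was held by 5 (17.2%, against 15.7% of all genes), TGACGT by 4 (13.8%, against 8.37%) and CAGCTG by 6 (20.7%, against 18.3%). AGGTCA repeated in the same direction with 4 bases between is the form of element bound by liver X receptors. It was held by 0 of the 29 and by 0.0148% of all genes, which says only that these letters are not in these windows.

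Transcripts of the 40 genes were scarce with vehicle and scarcer with T09. The median gene had 119.5 counts summed over the 4 vehicle libraries and 18 summed over the 3 T09 libraries. Every gene had counts in all vehicle libraries, whereas 10 genes were at 0 in T09 replicate 1, 2 in T09 replicate 2 and 2 in T09 replicate 3. On the length-corrected FPKM scale deposited by the authors, 20 genes had a mean level above 1 with vehicle and 5 with T09. Those 5 were Erbb3 (76.7 FPKM with vehicle, 57.6 with T09), L1cam (9.50 and 9.21), Tac1 (3.42 and 3.30), Uchl1 (5.91 and 1.37) and Rtn1 (2.47 and 1.08). Erbb3, a neuregulin receptor that gut epithelium also makes, stood far above the other 39 genes.

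With T09, 13 of the 33 genes tested fell and 0 rose, all 13 of them neuronal (edgeR quasi-likelihood test, adjusted p between 0.00574 and 0.0493). Over all genes tested, 2.87% were called lower and 1.44% higher. The 13 genes had log2 fold changes between -3.22 and -1.30. At an unadjusted p under 0.05, 27 of the 33 were lower and 0 higher, against 1511 and 1035 of the 14250 genes tested. Of 12 smooth muscle markers 11 were also called lower. With their mean level as a covariate, 0 of the 33 genes and 0 of all 14250 were called by edgeR. At an unadjusted p under 0.05, 0 of the 33 were then lower and 1 higher, against 386 and 381 of all genes. That covariate separated the groups completely, so this fit cannot tell muscle content from treatment. In this bulk tissue, fewer cells of a type and less RNA per cell cannot be told apart. The 7 genes with too few counts for the test were Elavl3, Nefl, Nefm, Chat, Slc18a3, Chrnb4 and S100b, and a fit without a low-count filter covers them. In that fit the median log2 fold change of the 40 genes was -1.997, against -0.00463 over the 24056 genes with a count. There 14 of the 40 were called lower, Nos1 being added, where 2.27% of all genes were called lower and 1.05% higher. In 29 of the 40 genes every T09 library lay below every vehicle library in CPM (counts scaled to library size), as did 6.97% of all genes with a count and 9.69% of those tested. In 0 of the 40 did every T09 library lie above every vehicle library. Of all 24056 genes with a count, 1222 did so, as did 7.07% of those tested. The groups overlapped for the other 11 of the 40: Nefl, L1cam, Ncam1, Syp, Chat, Npy, Tac1, Calb2, Cartpt, Gfap and Erbb3.

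**Figure D1:**
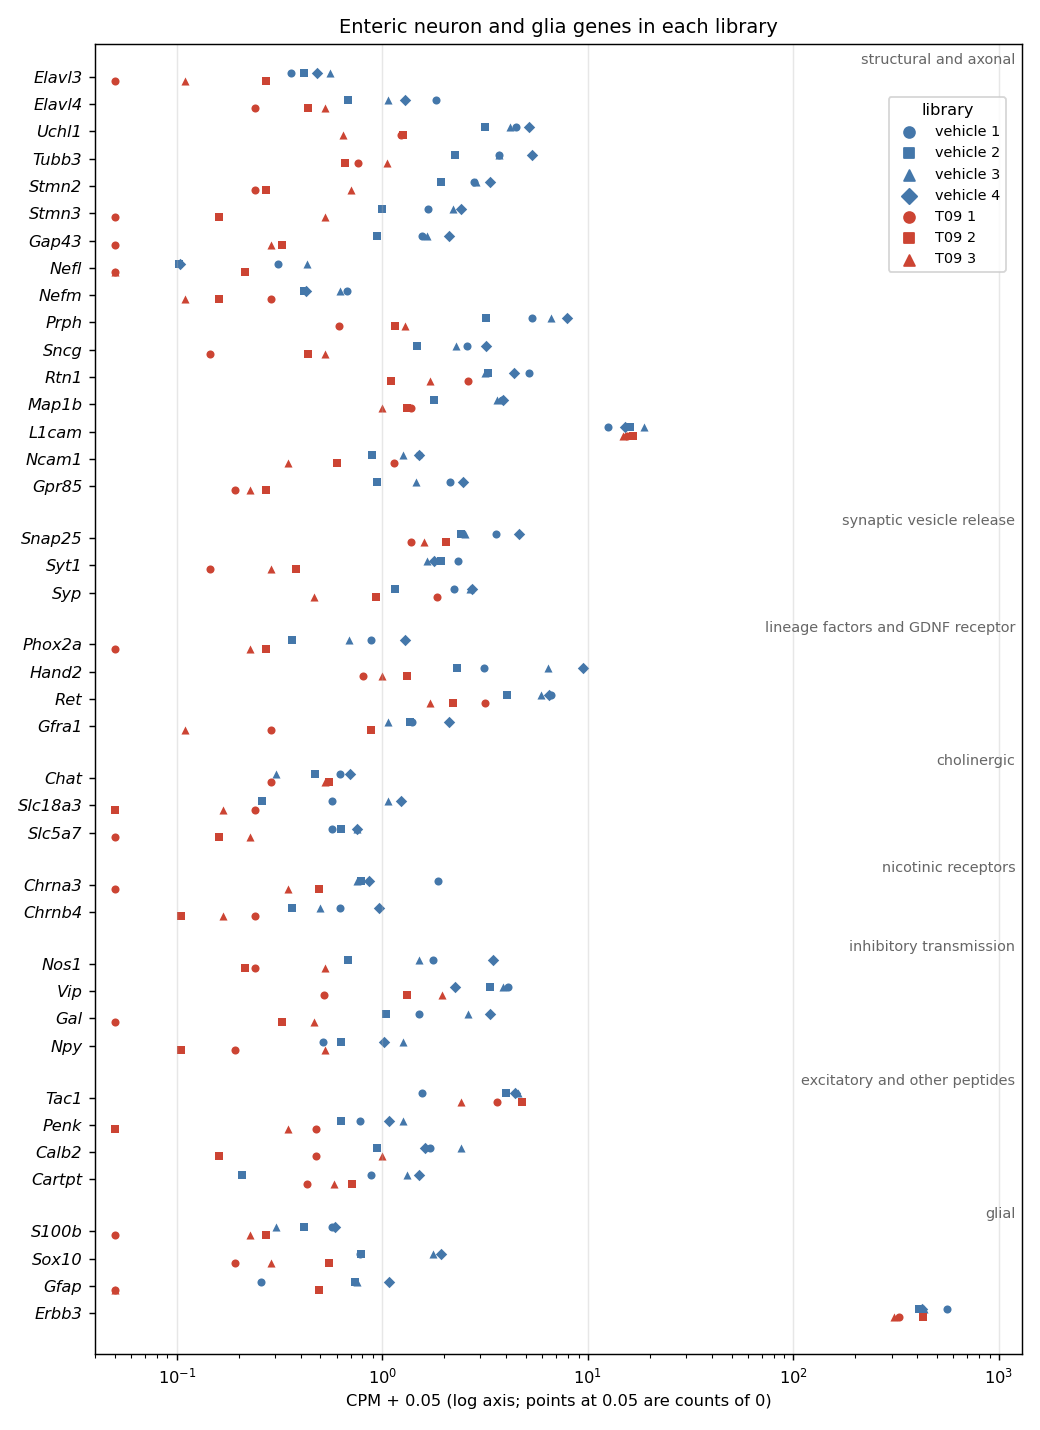
Level of each of the 40 genes in each library, as CPM + 0.05 on a log axis, ordered by role; blue symbols are the 4 vehicle libraries, red symbols the 3 T09 libraries, and points at 0.05 are counts of 0. Red points lie left of all blue points for 29 genes, while L1cam, Tac1 and Erbb3 are among the 11 whose groups overlap.

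Genes of the neuronal cytoskeleton, axon and cell body gave most of the calls: 9 of 13 tested fell, and the median log2 fold change of the 16 genes was -2.08 without a low-count filter. Prph, on chromosome 15 from 99055174 to 99058978 (GRCm38), encodes the intermediate filament peripherin of peripheral neurons. Its counts were 102, 60, 103 and 146 in vehicle replicates 1 to 4 and 12, 20 and 21 in T09 replicates 1 to 3. The lowest vehicle library thus lay well above the highest T09 library. Prph averaged 5.72 ± 2.01 CPM with vehicle (SD, n = 4) and 0.971 ± 0.357 CPM with T09 (SD, n = 3), a log2 fold change of -2.56 (SE 0.40, adjusted p 0.00835 by edgeR).

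Uchl1, the ubiquitin hydrolase PGP9.5 used as a stain for nerves, had counts of 85, 59, 65 and 95 with vehicle and 25, 22 and 10 with T09. It fell from 4.19 ± 0.839 to 0.996 ± 0.350 CPM (log2 fold change -2.06, SE 0.32, adjusted p 0.00875 by edgeR). Every T09 library was below every vehicle library, and T09 replicate 3 was the lowest. Tubb3, neuronal beta-tubulin, had counts of 70, 42, 57 and 98 with vehicle and 15, 11 and 17 with T09 (log2 fold change -2.25, SE 0.37, adjusted p 0.0102 by edgeR). Stmn2, a stathmin of growing axons, had 53, 36, 44 and 61 counts with vehicle and 4, 4 and 11 with T09 (log2 fold change -2.93, SE 0.46, adjusted p 0.00847 by edgeR). Both genes also had groups that did not overlap, and the log2 fold change of Stmn2 was -3.67 without T09 replicate 3.

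The largest falls in the group were those of Stmn3, Gpr85 and Gap43. Stmn3, another stathmin, had counts of 31, 18, 34 and 44 with vehicle and 0, 2 and 8 with T09 (log2 fold change -3.22, SE 0.76, adjusted p 0.0489 by edgeR). Gpr85, an orphan receptor of the brain, had 40, 17, 22 and 45 counts with vehicle and 3, 4 and 3 with T09 (log2 fold change -3.20, SE 0.49, adjusted p 0.00811 by edgeR). The T09 libraries were close to each other for Gpr85 and far apart for Stmn3, where replicate 3 held most of the counts. Gap43, the growth cone protein, had 29, 17, 25 and 38 counts with vehicle and 0, 5 and 4 with T09 (log2 fold change -3.15, SE 0.68, adjusted p 0.0336 by edgeR). Sncg, gamma-synuclein, fell by 2.88 on the log2 scale (SE 0.51, adjusted p 0.0158 by edgeR), and Map1b, a microtubule-associated protein, by 1.44 (SE 0.34, adjusted p 0.0484 by edgeR). Stmn3 and Gap43 lost the call in 5 of 7 fits that each left out a library, and Map1b in 6. The log2 fold change of Stmn3 was -2.59 without T09 replicate 1 and -4.93 without T09 replicate 3, and that of Gap43 was -2.52 without T09 replicate 1.

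The other members of the group did not pass. Elavl4, an RNA-binding Hu protein, had counts of 34, 12, 16 and 23 with vehicle and 4, 7 and 8 with T09 (log2 fold change -1.74, SE 0.49, adjusted p 0.0873 by edgeR). Its relative Elavl3 had 6, 7, 8 and 8 counts against 0, 4 and 1. Both had groups that did not overlap. Rtn1, a reticulon of neuroendocrine cells, also had groups that did not overlap (log2 fold change -1.16, SE 0.34, adjusted p 0.103 by edgeR), and it was called without T09 replicate 1 (log2 fold change -1.54, adjusted p 0.0349 by edgeR). The neurofilament genes had few counts, Nefm with 7 to 12 counts against 1 to 5 and Nefl with 1 to 6 against 0 to 3. Nefl lies within the listed span of Nefm on the opposite strand, and the sources used here do not say how strand was handled in counting, so these values are uncertain.

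Both cell adhesion genes, L1cam and Ncam1, had overlapping groups. L1cam, the adhesion molecule L1, had counts of 240, 304, 294 and 280 with vehicle and 326, 299 and 250 with T09. These groups overlapped fully, at 15.5 ± 2.58 CPM (SD, n = 4) and 15.6 ± 0.870 CPM (SD, n = 3), with a log2 fold change of 0.00 (SE 0.15, adjusted p 0.995 by edgeR) that was below 0 by library size alone or without a low-count filter. Part of L1cam, 4664 bases, overlaps Arhgap4 on the same strand, so reads there may come from either gene and its counts are uncertain. Ncam1, the neural cell adhesion molecule, had 28, 16, 19 and 27 counts with vehicle and 23, 10 and 5 with T09 (log2 fold change -0.91, SE 0.45, adjusted p 0.336 by edgeR), T09 replicate 1 lying among the vehicle libraries.

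**Figure D2:**
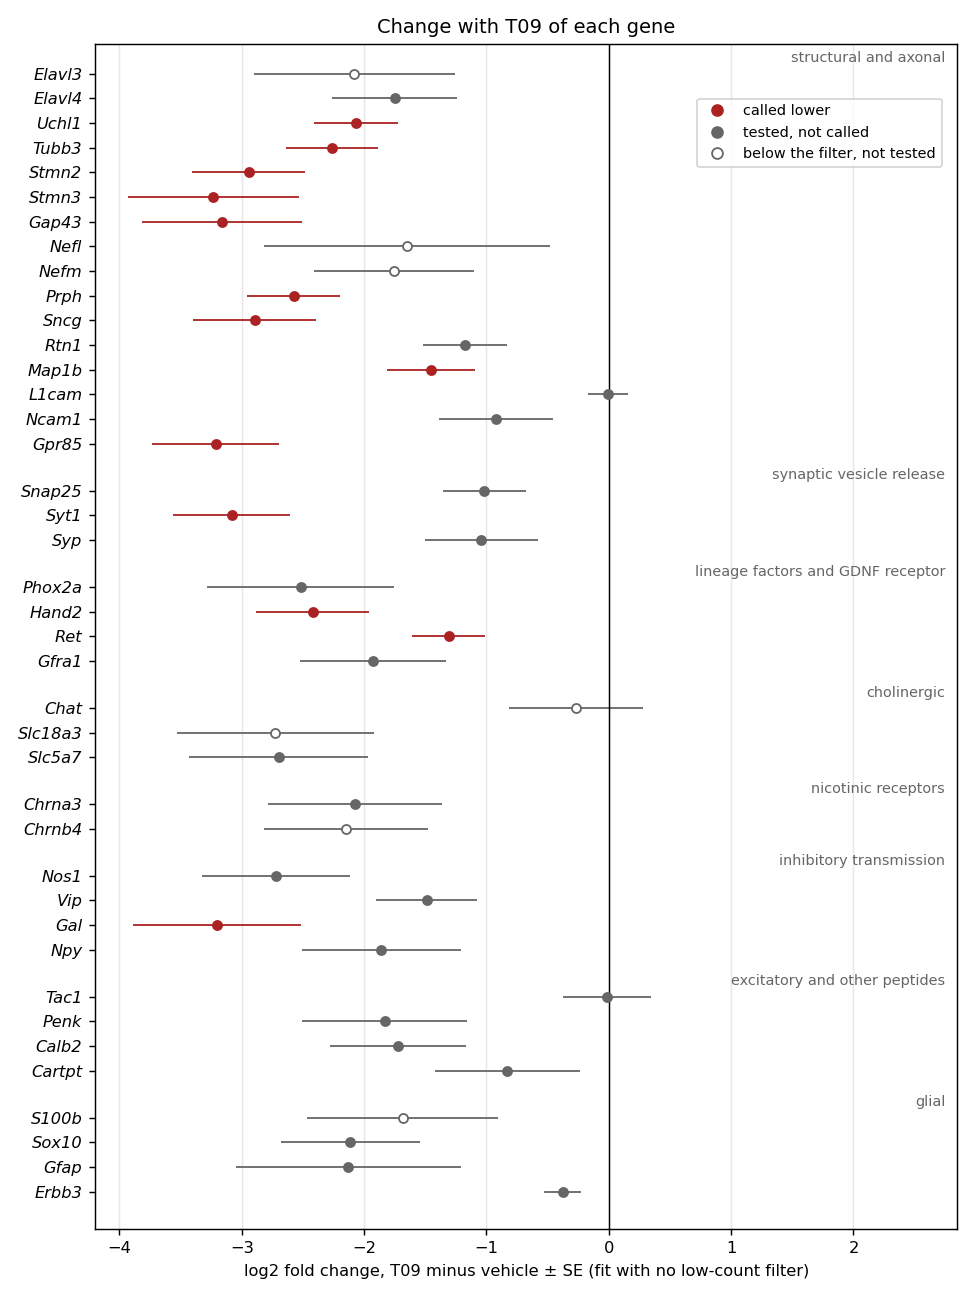
Log2 fold change (T09 minus vehicle) of each of the 40 genes with its SE, from the fit without a low-count filter; red points were called lower in the filtered fit, grey points were tested and not called, and open points were not tested. All 40 estimates lie at or below 0, from -3.23 for Stmn3 to -0.01 for L1cam.

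Among genes of synaptic vesicle release 1 of 3 fell, Syt1, the calcium sensor of vesicle fusion, on chromosome 10 from 108497650 to 109010982. Its counts were 44, 36, 25 and 32 with vehicle and 2, 6 and 4 with T09. The levels were 1.87 ± 0.300 CPM (SD, n = 4) and 0.221 ± 0.119 CPM (SD, n = 3), a log2 fold change of -3.08 (SE 0.43) with an edgeR adjusted p of 0.00574, the smallest of the 40 genes. Every T09 library was far below the lowest vehicle library. Snap25, a protein of the fusion complex, had 68, 45, 39 and 85 counts with vehicle and 28, 36 and 26 with T09 (log2 fold change -1.003, SE 0.32, adjusted p 0.128 by edgeR). Syp, the vesicle protein synaptophysin, had 42, 21, 41 and 50 counts with vehicle and 38, 16 and 7 with T09 (log2 fold change -1.03, SE 0.49, adjusted p 0.317 by edgeR). Neither passed, and for Syp the groups overlapped through T09 replicate 1.

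Snap25 and Syp are also made by enteroendocrine cells of the epithelium. The 16 markers of those cells summed to 279 to 439 CPM with vehicle and 265 to 420 CPM with T09. Of the 16, 0 were called by edgeR in either direction and 0 had an unadjusted p under 0.05, no marker was at 0 in any library, and their median log2 fold change was -0.07. Their 3 most abundant markers had overlapping groups: Gip at 105 ± 20.9 and 99.1 ± 3.52 CPM, Chgb at 95.4 ± 18.7 and 97.9 ± 39.5 CPM, and Chga at 54.2 ± 3.92 and 57.0 ± 15.2 CPM (SD, n = 4 and n = 3). The part of these cells in the values of Snap25 and Syp was not tested.

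Of the lineage factors and the receptor for GDNF, the glial cell line-derived neurotrophic factor, 2 of 4 fell. Hand2, a transcription factor of enteric neurons and of gut mesenchyme, had counts of 59, 43, 100 and 175 with vehicle and 16, 23 and 16 with T09. Vehicle replicate 4 stood above the rest, and all vehicle libraries were above all T09 libraries. Hand2 averaged 5.28 ± 3.29 CPM (SD, n = 4) and 0.991 ± 0.260 CPM (SD, n = 3), a log2 fold change of -2.41 (SE 0.52, adjusted p 0.0344 by edgeR). Ret, the signalling receptor for GDNF, had 127, 76, 92 and 119 counts with vehicle and 66, 39 and 28 with T09 (log2 fold change -1.30, SE 0.29, adjusted p 0.0360 by edgeR), the smallest fall among the 13 genes called. Both lost the call in 5 of the 7 fits that left out a library.

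Gfra1, the co-receptor of Ret that binds GDNF, had 26, 25, 16 and 38 counts with vehicle and 5, 15 and 1 with T09 (log2 fold change -1.92, SE 0.63, adjusted p 0.141 by edgeR). Phox2a, a homeobox factor of autonomic neurons, had 16, 6, 10 and 23 counts with vehicle and 0, 4 and 3 with T09 (log2 fold change -2.51, SE 0.78, adjusted p 0.121 by edgeR). In CPM neither had overlapping groups, and neither passed. Without T09 replicate 2, Gfra1 was called (log2 fold change -3.16, adjusted p 0.0416 by edgeR).

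Of the cholinergic genes 0 of 3 were called, and Chat and Slc18a3 had too few counts for the filtered test. Slc5a7, the choline transporter, had counts of 10, 11, 11 and 13 with vehicle and 0, 2 and 3 with T09 (log2 fold change -2.69, SE 0.68, adjusted p 0.0594 by edgeR). The vehicle libraries were even and all above the T09 libraries. Slc18a3, the vesicular acetylcholine transporter, had 10, 4, 16 and 22 counts against 4, 0 and 2, and in the fit without a low-count filter its log2 fold change was -2.73 (SE 0.81, adjusted p 0.0881 by edgeR). Chat, choline acetyltransferase, had 11, 8, 4 and 12 counts against 5, 9 and 8, groups that overlapped (log2 fold change -0.27, SE 0.55, adjusted p 0.858 by edgeR in the same fit). Slc18a3 lies inside Chat on the same strand, so reads there may come from either gene and both counts are uncertain.

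Chat is also made by tuft cells of the epithelium. The 8 tuft cell markers summed to 60.4 to 82.7 CPM with vehicle and 66.3 to 75.8 CPM with T09, with 0 of 7 tested called by edgeR and 0 at an unadjusted p under 0.05. At most 1 of the 8 markers was at 0 in a library, and their part in the counts of Chat was not tested. The ganglionic nicotinic receptor genes Chrna3 and Chrnb4, which receive acetylcholine between neurons, had log2 fold changes of -2.08 (SE 0.71) and -2.15 (SE 0.67) without a low-count filter. Their groups did not overlap, with 11 to 35 counts against 0 to 8 for Chrna3 and 6 to 17 against 1 to 4 for Chrnb4. Neither was called (adjusted p 0.166 and 0.113 by edgeR).

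Inhibitory transmission gave 1 call among 4 genes, that of Gal, the neuropeptide galanin. Its counts were 28, 19, 40 and 61 with vehicle and 0, 5 and 7 with T09. The level was 2.07 ± 1.04 CPM with vehicle (SD, n = 4) and 0.230 ± 0.211 CPM with T09 (SD, n = 3), a log2 fold change of -3.19 (SE 0.76, adjusted p 0.0493 by edgeR). All T09 libraries were below all vehicle libraries, and the call was lost in 5 of the 7 fits that left out a library. The log2 fold change of Gal was -2.56 without T09 replicate 1 and -3.92 without T09 replicate 3. Nos1, neuronal nitric oxide synthase, had 33, 12, 23 and 63 counts against 4, 3 and 8, a log2 fold change of -2.70 (SE 0.65) with an edgeR adjusted p of 0.0501. It lay just outside the threshold, and it was called without a low-count filter (adjusted p 0.0194 by edgeR) and without vehicle replicate 2 (adjusted p 0.0255 by edgeR).

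Vip, vasoactive intestinal peptide, had 78, 63, 60 and 41 counts with vehicle and 10, 23 and 32 with T09 (log2 fold change -1.48, SE 0.44, adjusted p 0.103 by edgeR). It was the 1 gene among the 40 with its lowest vehicle level in replicate 4, the library that was highest for 25 of them. Npy, neuropeptide Y, had 9, 11, 19 and 18 counts against 3, 1 and 8, and its groups overlapped in CPM (log2 fold change -1.85, SE 0.65, adjusted p 0.176 by edgeR). The 4 inhibitory genes together gave 7.68, 5.51, 9.04 and 9.86 CPM with vehicle and 0.803, 1.77 and 3.26 CPM with T09, so that every T09 library was lower.

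Among excitatory and other neuropeptides and calcium-binding markers, 0 of 4 tested genes were called, and 2 had an unadjusted p under 0.05, both lower. Tac1, precursor of substance P, which enterochromaffin cells of the epithelium can also make, had counts of 29, 75, 71 and 81 with vehicle and 75, 86 and 40 with T09. The groups overlapped, at 3.58 ± 1.41 CPM (SD, n = 4) and 3.55 ± 1.19 CPM (SD, n = 3), and its log2 fold change of -0.01 (SE 0.39, adjusted p 0.995 by edgeR) was above 0 with limma-voom. Calb2, calretinin, had 32, 17, 37 and 29 counts against 9, 2 and 16 (log2 fold change -1.71, SE 0.59, adjusted p 0.164 by edgeR). Penk, the enkephalin precursor, had 14, 11, 19 and 19 counts against 9, 0 and 5 (log2 fold change -1.81, SE 0.69, adjusted p 0.207 by edgeR). Cartpt, the precursor of the CART peptide, had 16, 3, 20 and 27 counts against 8, 12 and 9 (log2 fold change -0.82, SE 0.62, adjusted p 0.555 by edgeR). The groups overlapped for Calb2 and Cartpt but not for Penk.

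By transmitter, groups without overlap were seen for the share of the excitatory and other peptide genes with Tac1 among them. Tac1, whose group means were nearly equal, held 256 of the 500 counts of these genes with vehicle and 201 of 271 with T09. Their share thus rests largely on Tac1, and a separation was not shown for the rest of the group. Per 100 neuronal counts (L1cam left out), the excitatory and other peptide genes took 6.44, 11.5, 12.2 and 8.96 with vehicle. With T09 they took 21.9, 23.0 and 18.9, so that every T09 library was higher. Their own summed level was not higher with T09, at 4.72, 5.56, 9.36 and 8.41 CPM with vehicle and 4.77, 5.52 and 4.14 CPM with T09, and these groups overlapped. The inhibitory genes took 10.5, 11.4, 11.7 and 10.5 with vehicle and 3.69, 7.37 and 14.8 with T09. Those groups overlapped, T09 replicate 3 being the highest of all 7. The cholinergic genes took 2.19 to 2.70 with vehicle and 1.95 to 3.50 with T09, also overlapping. These shares were compared over libraries without a test.

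The glial genes gave 0 calls among the 3 tested, against 13 of 30 neuronal genes. At an unadjusted p under 0.05, 2 of the 3 were lower, and the difference between neuronal and glial genes was not tested. Sox10, the transcription factor of the glial lineage, had counts of 14, 14, 27 and 35 with vehicle and 3, 9 and 4 with T09 (log2 fold change -2.10, SE 0.57, adjusted p 0.0795 by edgeR). Its groups did not overlap. S100b, the glial calcium-binding protein, had 10, 7, 4 and 10 counts against 0, 4 and 3, and Gfap, the glial filament, had 4, 13, 11 and 19 against 0, 8 and 0. S100b overlaps 1731 bases of the far more abundant Dip2a on the opposite strand, so its values are uncertain. Erbb3 had 10763, 7812, 6775 and 7821 counts with vehicle and 6930, 7685 and 5181 with T09, overlapping groups with a log2 fold change of -0.37 (SE 0.15, adjusted p 0.247 by edgeR).

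Sums over the genes set neurons beside glia in each library. Leaving out L1cam, the neuronal genes summed to 73.3, 48.2, 76.9 and 93.9 CPM with vehicle and 21.8, 24.0 and 22.0 CPM with T09. The means were 73.1 ± 18.8 CPM (SD, n = 4) and 22.6 ± 1.21 CPM (SD, n = 3), 3.24-fold lower with T09. The T09 libraries lay closer together than the vehicle libraries. With L1cam kept, the neuronal means were 88.6 CPM with vehicle and 38.1 CPM with T09, 2.32-fold lower. Leaving out Erbb3, the glial genes held 28, 34, 42 and 64 counts with vehicle and 3, 21 and 7 with T09, a mean in CPM 4.09-fold lower (8.41-fold without T09 replicate 2). With Erbb3 kept, the glial means were 458 CPM with vehicle and 353 CPM with T09, 1.29-fold lower, and the groups overlapped. Per 100 neuronal counts (L1cam left out), the glial genes without Erbb3 took 1.98, 3.70, 3.47 and 3.67 with vehicle. With T09 they took 0.651, 4.84 and 1.89. T09 replicate 2 was the highest and T09 replicate 1 the lowest of the 7 libraries, so that the groups overlapped. These sums are descriptions, and no test was made of them.

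Smooth muscle, between whose layers the myenteric plexus lies, moved with the neuronal genes. Of its 12 markers, 11 were called lower and 0 higher by edgeR, none was at 0 in any library, and they summed to 1935, 1481, 2201 and 2333 CPM with vehicle and 417, 701 and 603 CPM with T09. The most abundant were Mylk (log2 fold change -1.22, SE 0.13), Myh11 (log2 fold change -2.18, SE 0.32) and Acta2 (log2 fold change -2.07, SE 0.25). Within the vehicle group, neuronal and muscle sums had the same order of libraries, with replicate 2 lowest and replicate 4 highest. Per 100 counts in muscle markers there were 3.79, 3.25, 3.50 and 4.02 neuronal counts with vehicle and 5.22, 3.42 and 3.64 with T09, so that the groups overlapped. With the mean log2 CPM of the muscle markers as a covariate, added after the data were seen, 0 of the 33 genes and 0 of all 14250 were called by edgeR. In that fit the median log2 fold change of the neuronal genes was -0.085. The covariate separated both groups completely, at 5.82 to 6.66 with vehicle and 3.83 to 4.69 with T09, so treatment and muscle content cannot be told apart.

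Interstitial cells of Cajal, the pacemaker cells beside the plexus, had markers summing to 29.0 to 41.5 CPM with vehicle and 10.8 to 18.5 CPM with T09. Of 5 markers, 1 fell, the gap junction gene Gja1 (log2 fold change -1.66, SE 0.17, adjusted p 0.00204 by edgeR), and none was at 0 in any library. Kit, the receptor that defines these cells, had a log2 fold change of -0.75 (SE 0.19, adjusted p 0.0637 by edgeR), and Ano1, their chloride channel, of -1.53 (SE 0.39, adjusted p 0.0633 by edgeR). Markers of macrophages and dendritic cells summed to 35.4 to 83.6 CPM with vehicle and to 160, 31.0 and 44.2 CPM in T09 replicates 1 to 3. Of these 8 markers 0 were called by edgeR and 0 had an unadjusted p under 0.05. None was at 0 in any library. T09 replicate 1 was also the highest T09 library for 9 of the 40 genes, Rtn1, Map1b, Ncam1, Syp and Ret among them, and the lowest for 20. The part of these cells in the values was not tested.

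**Figure D3:**
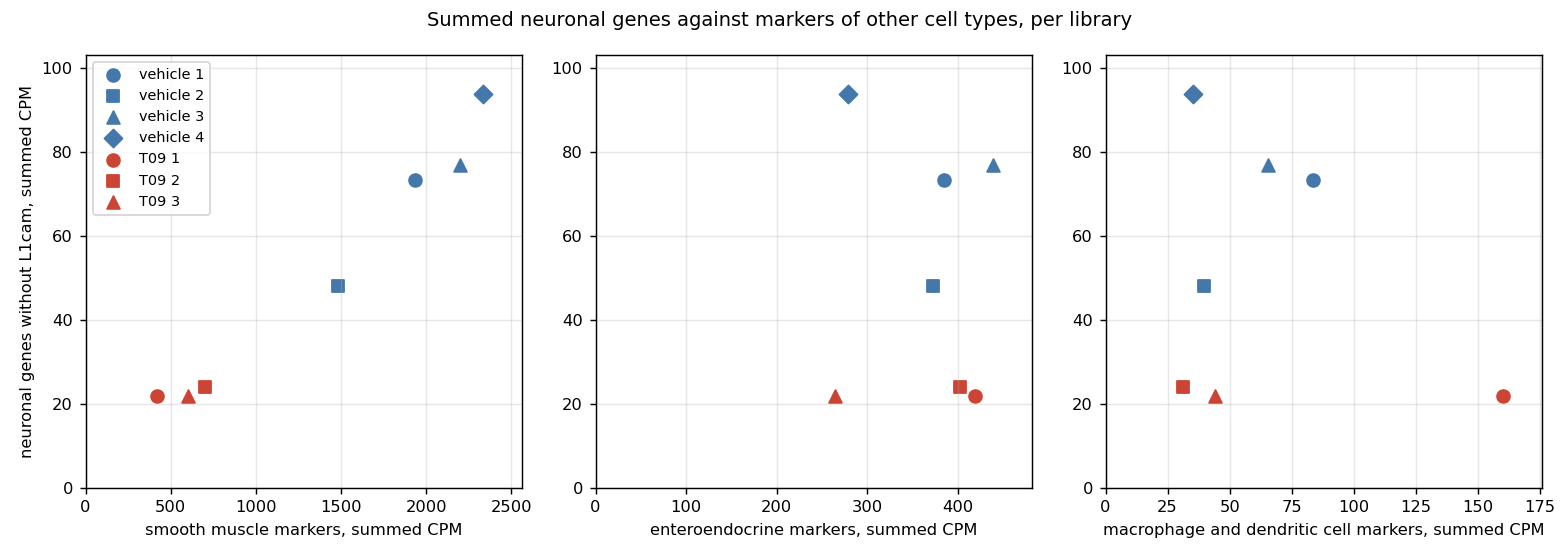
Summed CPM of the neuronal genes without L1cam (vertical axis) against the summed CPM of smooth muscle, enteroendocrine, and macrophage and dendritic cell markers (horizontal axes, left to right), 1 point per library, blue for vehicle and red for T09. Neuronal sums are 48.2 to 93.9 CPM with vehicle and 21.8 to 24.0 CPM with T09; both groups separate along the muscle axis and overlap along the other axes, where T09 replicate 1 lies at 160 CPM of macrophage and dendritic cell markers.

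A further 92 genes of neurons and glia were listed for their function. Of 56 tested, 16 fell and 0 rose, where 2.87% of all genes fell. At an unadjusted p under 0.05, 25 were lower and 0 higher, against 1511 and 1035 of the 14250 genes tested. The median log2 fold change of the further genes without a low-count filter was -1.22, over the 91 with a count. Among further neuronal genes 11 of 33 tested fell. The largest change was that of Nsg2, an endosomal protein of neurons, with 78, 42, 54 and 103 counts with vehicle and 11, 6 and 13 with T09 (log2 fold change -2.81, SE 0.42). All T09 libraries of Nsg2 were below all vehicle libraries. The log2 fold change was -2.70 (SE 0.40) for Cend1 and -2.32 (SE 0.38) for Fgf13, a modulator of sodium channels. The adjusted p by edgeR of Nsg2, Cend1 and Fgf13 lay between 0.00678 and 0.0109.

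Of transmitter and receptor genes beyond the 40, 3 of 14 tested fell. Htr3a, the serotonin-gated channel subunit, had 45, 21, 60 and 71 counts with vehicle and 5, 8 and 9 with T09 (log2 fold change -2.77, SE 0.52, adjusted p 0.0198 by edgeR). Chrm2, the M2 muscarinic receptor, which smooth muscle also makes, had a log2 fold change of -2.41 (SE 0.39, adjusted p 0.00961 by edgeR). Gucy1b1, a subunit of the nitric oxide receptor guanylate cyclase found in muscle and interstitial cells, had -1.55 (SE 0.28, adjusted p 0.0162 by edgeR). Further glial genes gave 2 falls among 9 tested, Art3, a member of the ADP-ribosyltransferase family (log2 fold change -1.87, SE 0.37, adjusted p 0.0246 by edgeR) and Foxd3, a neural crest transcription factor (log2 fold change -1.80, SE 0.37, adjusted p 0.0276 by edgeR). Foxd3 had 16, 21, 15 and 21 counts against 6, 6 and 4, groups that did not overlap.

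**Figure D4:**
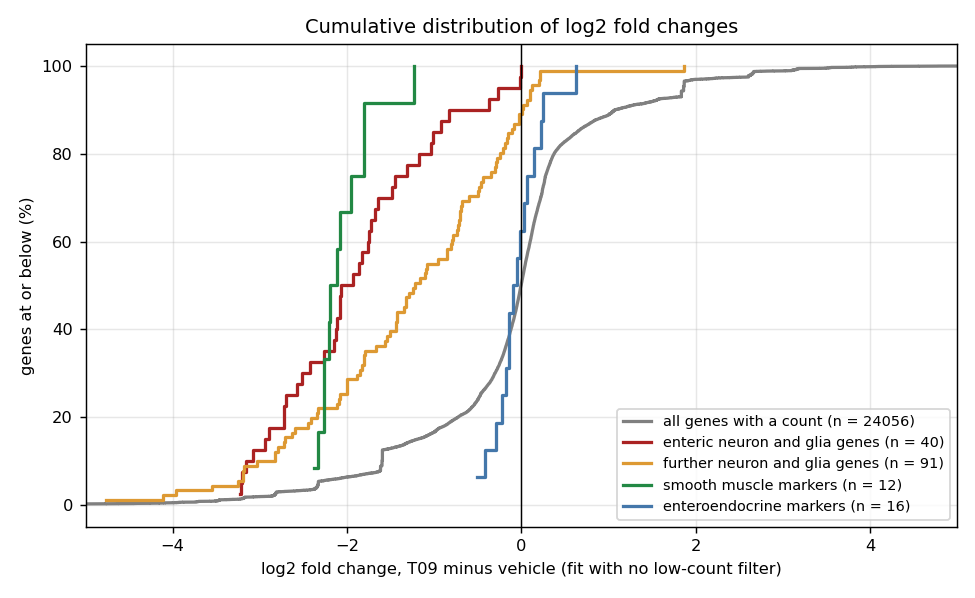
Cumulative share of genes (%) by log2 fold change (T09 minus vehicle) in the fit without a low-count filter, for all 24056 genes with a count, the 40 enteric neuron and glia genes, 91 further neuron and glia genes, 12 smooth muscle markers and 16 enteroendocrine markers. The median is -1.997 for the 40 genes, -1.22 for the further genes, -2.15 for smooth muscle and -0.07 for enteroendocrine markers; steps in the curve of all genes come from genes with very few counts.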

How the data were processed

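Duodenal polyadenylated RNA was sequenced after random priming in 4 mice given vehicle and 3 given T09, per the labels' protocols. Raw read counts for each Ensembl gene were deposited, per the file headers, together with FPKM values that the authors derived from them, which were used only for levels between genes. The submitters' processing notes name, with no roles, HTSeq 0.6.1, DESeq 1.18.0, TopHat2 2.0.12 and Bowtie2 2.2.3. The sources used here give neither the genome build nor how strand was treated. All 40 genes overlap their gene in GENCODE M21, 29 with identical coordinates, so coordinates are given on GRCm38.

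Counts were tested with edgeR 4.0.16 (R 4.3.3): filterByExpr by group, TMM scaling and the quasi-likelihood test, Benjamini-Hochberg adjusted across the 14250 genes that passed. The call threshold was an adjusted p of 0.05. SE stands for standard error, here the absolute log2 fold change over the root of F. CPM used deposited counts and TMM-scaled sizes; ratios, figures and promoter motifs used Python 3.11.15. The test was checked on simulated counts. Low counts limit precision, and p-values set the group difference against the spread estimated from these mice. Alternatives were DESeq2 size factors, library size alone, DESeq2 1.42.0, limma-voom (limma 3.58.1), 2 other filters, the replicate number as a block, and each library left out.

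The members and lists were chosen with earlier results of these data known. The tuft and macrophage lists, the muscle covariate and the medians without L1cam or Erbb3 were added after the data were seen. All 40 genes may be named; of each further list, the 4 called genes of largest change; of marker lists, the 3 most abundant. Of the genes this rule names, 1 is not reported here. Of tissue markers, the duodenal factor Pdx1 and the enterocyte factor Gata4 were present in all libraries.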

Additional observations from a re-analysis of the deposited data

Results flagged for a closer look

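In the vehicle group, the 4 values of each of 50 genes and sums were examined for a library far from the others, and 4 stood apart, where chance at 1 in 20 gives 2.5. Map1b was lowest in vehicle replicate 2, at 1.73 CPM against 3.56 CPM for the next library. Chrna3 was highest in vehicle replicate 1, at 1.82 CPM against 0.808 CPM. Erbb3 was highest in vehicle replicate 1, at 558 CPM against 431 CPM, and the sum of the 4 glial genes, which Erbb3 makes up almost entirely, was 560 CPM against 434 CPM in the same library. Groups of 3 were not examined in this way.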

How the results depend on the processing

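Of the 13 genes called, Uchl1, Tubb3, Stmn2, Prph, Sncg, Gpr85 and Syt1 kept the call in all 7 fits that left out a library, and 6 lost it in at least 1. The count of 13 ranged from 7 to 13 over those fits: 7 when vehicle replicate 3 or 4 was left out, and 8 for vehicle replicate 1, T09 replicate 2 or T09 replicate 3. The count over further neuron and glia genes (16) ranged from 4 to 18, that of all lower genes (409) from 161 to 523 and that of all higher genes (205) from 90 to 296. The glial median log2 fold change (-2.10) ranged from -2.72 to -1.12, and was -0.37 when 1 CPM was required in 3 or more libraries, where fewer glial genes are tested. By total counts, the glial sum without Erbb3 was 4.27-fold lower with T09, and from 3.12-fold to 8.87-fold when a library was left out, the highest without T09 replicate 2. DESeq2 called 719 genes lower and 372 higher, 18 of the 40 among the lower. L1cam (0.0032) was -0.043 by library size alone and -0.0072 without a low-count filter, ranging from -0.090 to 0.10 over the fits that left out a library. Tac1 (-0.01) was 0.084 with limma-voom and ranged from -0.27 to 0.21. 0 of the 40 genes were called higher under any alternative.

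Same-numbered libraries had correlations of 0.27, 0.05 and -0.04 of their deviations from group means. Libraries of different numbers had correlations from -0.30 to 0.17. With so few libraries, these values cannot decide whether the numbers pair the samples. With the replicate number as a block, 177 genes were called lower and 113 higher. 5 of the 40 (Tubb3, Stmn2, Prph, Gpr85 and Syt1) and 6 of the further genes were then lower, the glial median was -1.81 and Tac1 was 0.18.

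With the muscle score as a covariate, 0 genes were called lower and 0 higher (386 and 381 at an unadjusted p under 0.05), with 0 of the 40 and 0 of the further genes among them. The neuronal median was -0.085 and the glial median 0.38. Log2 fold changes turned positive for Elavl4 (0.69), Stmn3 (0.59), Gap43 (0.45), Prph (0.27), Sncg (0.11), Snap25 (0.41), Phox2a (2.41), Hand2 (1.00), Chrna3 (0.56), Nos1 (1.20), Gal (1.42), Tac1 (0.29), Cartpt (3.71), Sox10 (1.24), Gfap (0.38) and Erbb3 (0.031), none called. The SE was larger than the log2 fold change for each of these genes except Phox2a and Cartpt. The muscle score separated the groups completely, so these signs cannot show a rise with T09 at equal muscle content. Counts under 10 in every T09 library, seen for 22 of the 40 genes, limit what can be resolved. The cause of these differences was not tested.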

Other observations

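Markers of fat and mesothelium, tissues attached to the outer wall, were uneven among libraries. The 7 adipocyte markers summed to 166, 162, 219 and 354 CPM with vehicle and 143, 120 and 114 CPM with T09, so that every T09 library was lower. Of the 5 tested, 0 were called by edgeR and all 5 were lower at an unadjusted p under 0.05. Without a low-count filter 3 of the 7 were called lower. Cidec, a lipid droplet protein, made up most of these counts, with 3075, 2894, 3151 and 3748 with vehicle and 3019, 2148 and 1842 with T09 (log2 fold change -0.53, SE 0.14). Cfd, encoding the protease adipsin, had 19, 92, 116 and 1304 counts with vehicle and 9, 0 and 40 with T09, and Plin4, encoding a lipid droplet coat protein, had 94, 66, 104 and 415 against 7, 33 and 30.

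The 5 mesothelial markers summed to 14.2, 5.14, 2.99 and 26.2 CPM with vehicle and 6.14, 4.36 and 3.67 CPM with T09, groups that overlapped. Upk1b, the 1 marker tested, had 87, 76, 34 and 100 counts with vehicle and 112, 71 and 54 with T09 (log2 fold change 0.04, SE 0.32). Upk3b had 106, 7, 6 and 230 counts against 8, 3 and 5, and Msln, encoding mesothelin, had 46, 9, 1 and 88 against 9, 4 and 0. Vehicle replicate 4 had the highest sum of both lists, and it was also the highest vehicle library for 25 of the 40 neuron and glia genes. The part of this in their values was not tested.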
